A study of Rattus norvegicus with 45 samples.

Results

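Neuropeptide precursor and granin genes were followed through the CA1, CA3 and dentate gyrus (DG) of the rat hippocampus. The 10 genes listed were Penk, Pdyn, Nmb, Grp, Tac1, Cort, Crh, Adcyap1, Scg2 and Chgb. A probe set was taken when its gene symbol in the deposited annotation, or the current symbol of its gene identifier, equalled a listed gene. That rule found 9 genes with 10 probe sets, out of 12645 gene symbols and 31042 non-control probe sets. Pdyn had 2 probe sets, a bright one and a dim one, and the Nmb probe set carries an older provisional symbol in the file. The annotation text of Adcyap1 gives neither a symbol field nor an identifier, so the rule missed it. Its 2 probe sets are described beside the others and are left out of every count. The genes were chosen by earlier results of these arrays, and which of the signal values entered the choice was not recorded. The tests below therefore describe these genes and are no independent evidence that neuropeptide genes as a class differ.

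The rats were male F344xBN hybrids of 5 classes with 3 animals each, and every animal gave 1 array per region, 45 arrays in all. Restricted rats ate a reduced diet from 14 weeks of age, lowered by 10%, then 25% and from 17 weeks on by 40%. They were studied at 28 months as poor performers (CRO_PP) and good performers (CRO_GP). Rats fed ad libitum were studied at 28 months as poor performers (ALO_PP) and good performers (ALO_GP), and at 18 months as a middle-aged class with no performance label (ALMA). The labels name the behavioural score only as good or poor performance. The dissected pieces hold every cell type of their region, so a lower signal may mean fewer cells of a type or less RNA per cell, and these cannot be told apart. Chips were hybridised once per region and animal, and the 3 animals of each class are the replicates.

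Neuropeptides are cut from longer precursors in the secretory pathway, packed into dense core vesicles together with granins, and released mostly during sustained or burst firing. They act on G protein-coupled receptors and tune transmission rather than carry it. In the rodent hippocampus the opioid precursors are best known from dentate granule cells, whose mossy fibre axons run into CA3, while several other peptides mark inhibitory interneurons.

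Array medians of dChip signal, the model-based expression value of the authors' main tables, ran from 151.2 to 175.5 in the table of ad libitum rats and from 153.1 to 187.7 in the table of old rats. Between 58.9% and 67.4% of probe sets were called present on an array. In 2 places the title and the description of an array are at odds. The description of CRO_GP replicate 2 of DG names the restricted poor class, and that of ALMA replicate 2 of CA3 repeats the animal number of another array. Both were grouped by title. Without CRO_GP replicate 2 the calls of Scg2 and Grp for DG minus CA1 in restricted rats were lost, those of Cort for DG minus CA1 and DG minus CA3 appeared, and Crh for diet in DG still passed. Without ALMA replicate 2 no member's call changed. The authors' own sample sheet marks 2 arrays as outliers, CRO_PP replicate 3 of CA1 and CRO_PP replicate 4 of CA3. Added poly-A control transcripts (DapX) parted the arrays into 3 sets. The 9 ALMA arrays had mean DapX signals of 256.8 to 332.1, another set of 22 arrays had 70.0 to 127.8, and the low set of 14 arrays had 1.78 to 6.76. The middle set of 22 holds all old ad libitum arrays, the CRO_GP arrays of CA1 and 1 CRO_GP array of CA3, and the low set holds the remaining restricted arrays. Age and control set therefore cannot be told apart in any region. The same holds for diet in DG and for performance of restricted rats in CA1. It nearly holds for diet in CA3, where all but 1 restricted array lie in the low set. The 3 arrays of each ad libitum rat and of each CRO_PP rat lie within 1 set. In the CRO_GP rats the CA1 arrays lie in the middle set, the DG arrays in the low set and the CA3 arrays in both. For the CRO_GP rats DG minus CA1 and control set therefore cannot be told apart, and their other region contrasts cross sets in part. Among the ad libitum arrays of old rats, ALO_GP replicate 1 of DG stands apart, with a summed signal of meningeal and fibroblast markers of 36221, against 5710.2 to 10726 on the other 5.

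The genes differed most by region. Between DG and CA1, 9 of the 10 probe sets differed in restricted rats (7 higher and 2 lower in DG), where 27.9% of all 18625 tested probe sets differed (12.2% higher and 15.6% lower). In ad libitum rats 9 differed (6 higher and 3 lower), where 16.5% of all did (8.13% higher and 8.4% lower). Tac1, counted among the lower ones under both diets, was near the detection limit in each region, and its ad libitum call was lost without ALO_GP replicate 2 (adjusted p = 0.0642), ALO_PP replicate 1 (adjusted p = 0.0501) or ALO_PP replicate 3 (adjusted p = 0.0521). The median log2 difference of the 10 probe sets was 0.49 in restricted rats and 0.37 in ad libitum rats, beside -0.00195 and -0.00206 over all tested probe sets. Between CA3 and CA1, 6 of 10 differed under each diet, 3 higher and 3 lower in CA3. The background was 26.8% in restricted rats (8.38% higher and 18.4% lower) and 22.3% in ad libitum rats (8.79% higher and 13.5% lower), and the median of the 10 was -0.09 and 0.02, beside -0.0582 and -0.0213 over all tested probe sets. The 3 probe sets lower in CA3 were those of Penk and both of Pdyn. The dim Pdyn probe set was called present on no CA3 array of ad libitum rats. Its restricted call was lost without CRO_GP replicate 1 or 3 or CRO_PP replicate 1 or 2 (adjusted p of 0.0853 to 0.119). The series value table holds the same arrays under another processing. There the median of the 8 member probe sets tested was 0.06 in restricted rats and 0.08 in ad libitum rats. These 8 leave out Tac1 and the dim Pdyn probe set, so their medians and those of the 10 cover unlike sets. Between DG and CA3, 7 of 10 differed in restricted rats (4 higher and 3 lower in DG) against a background of 16.9% (10.3% higher and 6.63% lower), and 8 of 10 in ad libitum rats (4 higher and 4 lower) against 36% (20% higher and 16% lower). Of the 8 member probe sets tested in the value table, 3 differed between DG and CA3 in restricted rats (2 higher and 1 lower in DG), where 12.8% of all did. The arrays of the 2 regions did not overlap for 4 of the 10 between DG and CA3 in restricted rats, as for 12.2% of all probe sets, and for 4 in ad libitum rats, as for 3.71%. Between DG and CA1 in restricted rats 6 did not overlap, as for 14.8% of all, and between CA3 and CA1 in restricted rats 2 did not, as for 8.6%. In ad libitum rats every member overlapped in these 2 contrasts, where 1.7% and 0.558% of all did not. The 6 include both Pdyn probe sets and Tac1, which was called present on none of those arrays. Both Pdyn probe sets are also among the 4 between DG and CA3 under each diet. All these contrasts were fitted with limma within animals on log2(signal + 16), with p-values adjusted over the whole table and a threshold of 0.05. Those in restricted rats cross DapX sets within the CRO_GP rats, as stated above.

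**Figure D1:**
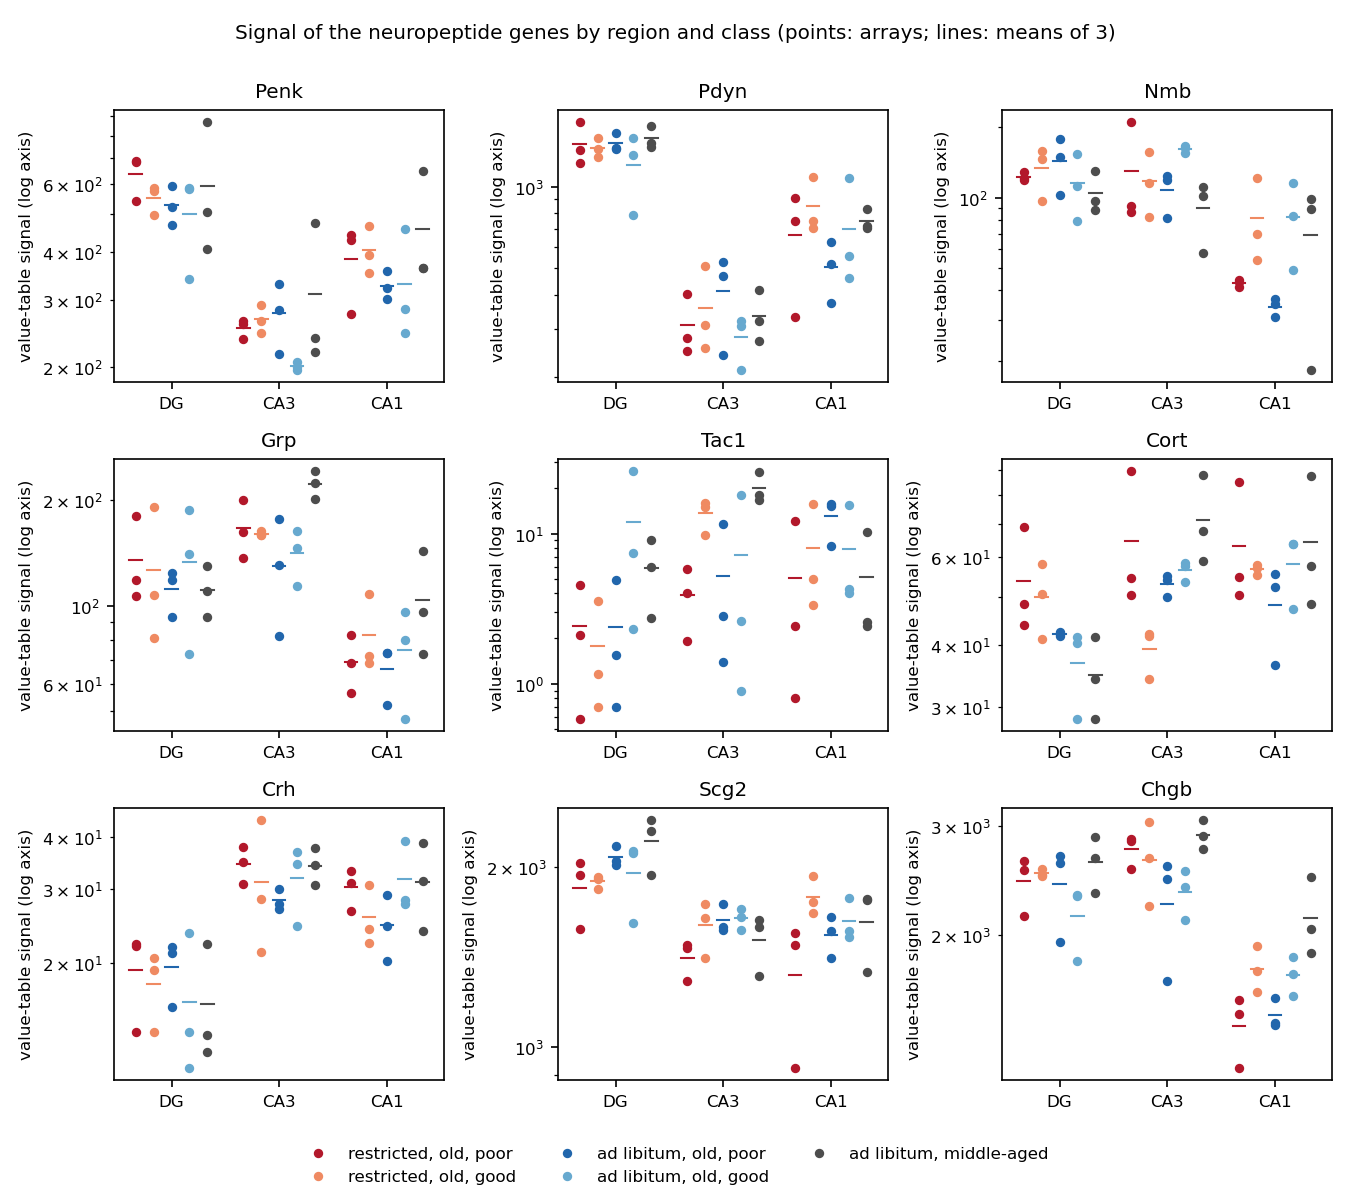
Signal of 9 neuropeptide genes on all 45 arrays (series value table, logarithmic vertical axis, arbitrary units), by region from DG through CA3 to CA1 and by class within each region. Points are single arrays and lines are means of 3. Penk and Pdyn lie lowest in CA3 in every class, Nmb and Grp have their lowest class means in CA1, and Crh lies lower in DG than in CA3.

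Penk and Pdyn, which encode the precursors of the enkephalins and of the dynorphins, were highest in DG, intermediate in CA1 and lowest in CA3. In restricted rats Penk signal ran from 3274 through a median of 3493 to 3653 in DG, from 1554 through 1765 to 1852 in CA3, and from 1708 through 2559.7 to 3036 in CA1. Under ad libitum feeding it ran from 2719 through 3381 to 4145 in DG, from 1357 through 1556 to 2616 in CA3, and from 2017 through 2345 to 3197 in CA1. The DG and CA3 arrays did not overlap under either diet. Penk was higher in DG than in CA3 in 6 of 6 restricted rats, by 1.00 on the log2 scale (SE 0.0991, adjusted p = 7.16e-05), and in 9 of 9 ad libitum rats, by 0.97 (SE 0.0973, adjusted p = 8.07e-07). It was lower in CA3 than in CA1 by 0.52 in restricted rats (log2 difference -0.52, adjusted p = 0.00317) and by 0.53 in ad libitum rats (log2 difference -0.53, adjusted p = 0.00109).

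Pdyn showed the same order with a wider span. Its bright probe set ran from 5590.2 through 6152 to 6861 in DG of restricted rats, from 1189 through 1573 to 2858 in CA3, and from 2332 through 4269.9 to 5373 in CA1. Ad libitum rats had 4627 through 6139 to 6902 in DG, 980.4 through 1688 to 3325 in CA3, and 2195 through 3478 to 5427 in CA1. The DG arrays all lay above the CA3 arrays. The DG to CA3 difference was 3.73-fold in restricted rats (log2 difference 1.90, SE 0.188, adjusted p = 7.16e-05) and 3.26-fold in ad libitum rats (log2 difference 1.70, SE 0.171, adjusted p = 8.09e-07). Pdyn was also higher in DG than in CA1, by 0.64 in restricted rats (adjusted p = 0.0255) and by 0.81 in ad libitum rats (adjusted p = 0.00256). The restricted call was lost without CRO_GP replicate 1 (0.64, adjusted p = 0.0716), CRO_PP replicate 2 (0.64, adjusted p = 0.0663) or the marked CRO_PP replicate 3 (0.46, adjusted p = 0.0648). The dim Pdyn probe set was also higher in DG than in CA3 under both diets. It was called present on 20 of 36 arrays of old rats and on 11 of 27 arrays of ad libitum rats, and on no CA3 array of ad libitum rats, so its CA3 signal there is only an upper bound and no difference is given.

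Markers of dentate granule cells moved with Penk and Pdyn. Their summed signal, over the 10 of 12 listed genes found on the array, ran from 13783 to 15470 in DG, from 3951 to 8043 in CA3 and from 8124 to 13323 in CA1 of restricted rats. In old ad libitum rats it ran from 10949 to 16349 in DG, from 5811 to 10346 in CA3 and from 9601 to 14076 in CA1. Of the 7 dentate granule markers tested, 6 were higher in DG than in CA3 under each diet (background 10.3% in restricted and 20% in ad libitum rats), and 4 were lower in CA3 than in CA1 under each diet (18.4% and 13.5%). Their part in the Penk and Pdyn differences was not tested. Adcyap1, which encodes the peptide PACAP, had the same low point. Its brighter probe set was lower in CA3 than in CA1 by 1.32 in restricted rats (log2 difference -1.32, adjusted p = 0.00145) and by 0.82 in ad libitum rats (log2 difference -0.82, adjusted p = 0.00263), while DG and CA1 did not differ past the threshold (0.24 with a 95% interval of -0.24 to 0.72 in restricted rats, and 0.20 with -0.16 to 0.56 in ad libitum rats).

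Nmb and Grp encode neuromedin B and gastrin-releasing peptide, the mammalian bombesin-like peptides, which act on the receptors Nmbr and Grpr. Nmb was lowest in CA1. Grp had its lowest median there under each diet, but in the middle-aged class its mean was 570.9 in CA1 and 531.7 in DG. Nmb signal ran from 583 through 681 to 860.3 in DG of restricted rats, from 462 through 622 to 1329 in CA3, and from 146 through 289.7 to 677 in CA1. Under ad libitum feeding it ran from 327 through 580.5 to 857 in DG, from 329.7 through 579 to 917 in CA3, and from 119 through 245 to 553 in CA1. The regional ranges overlapped, but 6 of 6 restricted rats and 8 of 9 ad libitum rats had more Nmb signal in DG than in CA1. The DG to CA1 difference was 2.34-fold in restricted rats (log2 difference 1.22, SE 0.294, adjusted p = 0.0109) and 2.14-fold in ad libitum rats (log2 difference 1.10, SE 0.260, adjusted p = 0.00612). The CA3 to CA1 difference was 2.39-fold (log2 difference 1.26, adjusted p = 0.00892) and 2.24-fold (log2 difference 1.17, adjusted p = 0.0041). DG and CA3 did not differ past the threshold, with 95% intervals of -0.67 to 0.60 in restricted rats and -0.61 to 0.48 in ad libitum rats.

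Grp was highest in CA3. Its signal there ran from 857 through 1009.9 to 1208 in restricted rats, against 283 through 418 to 685 in CA1 of the same rats, and the ranges did not overlap. In ad libitum rats it ran from 509 through 981 to 1169 in CA3, against 292 through 456 to 964 in CA1. The CA3 to CA1 difference was 1.24 on the log2 scale in restricted rats (SE 0.184, adjusted p = 0.000698, higher in 6 of 6) and 1.02 in ad libitum rats (SE 0.166, adjusted p = 0.000462, higher in 9 of 9). In DG it ran from 434 to 1135 in restricted rats and from 449 to 1159.9 in ad libitum rats. DG exceeded CA1 by 0.58 in restricted rats (adjusted p = 0.0351, higher in 4 of 6), whereas the difference of 0.48 in ad libitum rats did not pass the threshold (adjusted p = 0.0549, higher in 8 of 9). The restricted call was lost without CRO_GP replicate 2 or CRO_PP replicate 1, 2 or 3 (differences of 0.44 to 0.57, adjusted p of 0.0597 to 0.110), and the ad libitum difference passed without ALMA replicate 1 (0.63, adjusted p = 0.0094) and in the value table (0.48, adjusted p = 0.0188, background 13%). That restricted call was also lost without the filter (0.58, adjusted p = 0.0502) and without the animal as a block (0.58, adjusted p = 0.0581). Grp was lower in DG than in CA3 by log2 differences of -0.66 in restricted rats (adjusted p = 0.0265) and -0.54 in ad libitum rats (adjusted p = 0.0169). The restricted call was lost without CRO_GP replicate 1 or 3 or any CRO_PP rat (-0.57 to -0.73, adjusted p of 0.0525 to 0.0966) and in the value table (-0.34, adjusted p = 0.168), and the ad libitum call without ALMA replicate 3 (-0.47, adjusted p = 0.0585). That ad libitum call was also lost without the animal as a block (-0.54, adjusted p = 0.0533). CA3 pyramidal markers moved with Nmb and Grp: their summed signal over all 10 listed genes ran from 26683 to 29333 in DG, from 27595 to 36164 in CA3 and from 20151 to 22082 in CA1 of restricted rats. Their part in the Nmb and Grp differences was not tested.

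Crh was lower in DG than in CA1 under both diets, and Cort passed in ad libitum rats. Crh encodes corticotropin-releasing hormone, which interneurons of the rodent hippocampus make. Its signal ran from 86.1 through 94.4 to 112 in DG of restricted rats, from 151 through 183 to 232 in CA3, and from 134 through 198 to 207 in CA1, so that every DG array lay below every other array. In ad libitum rats it ran from 98.4 through 111 to 161 in DG, from 163 through 193 to 236 in CA3, and from 112 through 164 to 258 in CA1. Crh was lower in DG than in CA1 in 6 of 6 restricted rats (log2 difference -0.78, SE 0.122, adjusted p = 0.00122) and in 9 of 9 ad libitum rats (log2 difference -0.50, SE 0.110, adjusted p = 0.00371). CA3 and CA1 did not differ past the threshold, with differences of 0.06 in restricted rats and 0.17 in ad libitum rats.

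Cort encodes cortistatin, a somatostatin-related peptide of inhibitory interneurons. In ad libitum rats its signal ran from 174 through 228 to 340.4 in DG, from 272 through 324 to 419 in CA3, and from 213 through 327 to 452 in CA1. It was lower in DG than in CA3 in all 9 ad libitum rats (log2 difference -0.43, SE 0.0930, adjusted p = 0.00138) and lower in DG than in CA1 in 7 of 9 (log2 difference -0.37, adjusted p = 0.00857). In restricted rats the differences of -0.23 from CA3 (adjusted p = 0.398) and -0.39 from CA1 (adjusted p = 0.108) did not pass the threshold. Without CRO_GP replicate 2, whose DG signal of 312 was the highest of the restricted rats, they were -0.45 (adjusted p = 0.0343) and -0.52 (adjusted p = 0.0207). Tac1, the precursor of substance P and neurokinin A, was close to the detection limit and was called present on 3 of 27 arrays of ad libitum rats and 3 of 36 arrays of old rats. In restricted rats its signal ran from 33.8 through 49.8 to 61.7 in DG and from 81.9 through 131 to 152 in CA1, and it was called present on none of these 12 arrays. In ad libitum rats it ran from 35.6 through 66 to 379 in DG and from 113 through 164 to 228 in CA1. The 379 came from ALO_GP replicate 1, the DG array with the high meningeal marker sum and the 1 DG array on which Tac1 was called present, and it lies above every CA1 array. No difference is given, because nearly all of these signals are only upper bounds. Interneuron markers moved with these genes. Of 12 tested, 6 were lower in DG than in CA1 in restricted rats and 8 in ad libitum rats, none was higher, and their summed signal ran from 18727 to 21487 in DG against 23893 to 28225 in CA1 of restricted rats. Of all tested probe sets, 15.6% and 8.4% were lower. Their part in the Cort and Crh differences was not tested.

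Scg2 and Chgb encode secretogranin II and chromogranin B, acidic proteins that help build the dense core vesicles in which peptides are stored. Scg2 ran from 6926 through 7377 to 7563 in DG, from 4783 through 5925 to 6999 in CA3, and from 4153 through 6421 to 7401 in CA1 of restricted rats. The DG to CA1 difference was 1.20-fold in restricted rats (log2 difference 0.27, adjusted p = 0.0343, higher in 6 of 6) and 1.18-fold in ad libitum rats (log2 difference 0.24, adjusted p = 0.00571, higher in 8 of 9). The restricted call was lost without CRO_GP replicate 1 or 2 or any CRO_PP rat, with differences of 0.17 to 0.29 and adjusted p of 0.0516 to 0.0768, and in the value table (0.30, adjusted p = 0.0825, background 23%). It was also lost without the filter (0.27, adjusted p = 0.0551) and without the animal as a block (0.27, adjusted p = 0.0869). Between DG and CA3 the Scg2 difference was 0.30 in restricted rats (adjusted p = 0.0281, higher in 6 of 6) and 0.25 in ad libitum rats (adjusted p = 0.0016, higher in 8 of 9). That restricted call was lost without CRO_GP replicate 1 or 3 or CRO_PP replicate 1 or 2 (0.29 to 0.32, adjusted p of 0.0644 to 0.0856), without the filter (0.30, adjusted p = 0.0512), without the animal as a block (0.30, adjusted p = 0.0772) and in the value table (0.31, adjusted p = 0.105). CA3 and CA1 did not differ past the threshold, with 95% intervals of -0.22 to 0.15 and -0.13 to 0.10. Chgb instead was lower in CA1 than in both other regions. It ran from 9865 through 9938 to 10124 in DG, from 8364 through 9884 to 10665 in CA3, and from 5366 through 7438 to 8080.1 in CA1 of restricted rats, with no overlap between CA1 and either region. The difference from CA1 was 0.49 in DG (SE 0.0693, adjusted p = 0.000635) and 0.46 in CA3 (adjusted p = 0.000788) of restricted rats, and 0.30 in DG (SE 0.0574, adjusted p = 0.00117) and 0.29 in CA3 (adjusted p = 0.0018) of ad libitum rats. Set against CA1, the CA3 signal of Chgb was 1.37-fold in restricted rats and 1.22-fold in ad libitum rats, and that of Scg2 was 0.976-fold and 0.988-fold.

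**Figure D2:**
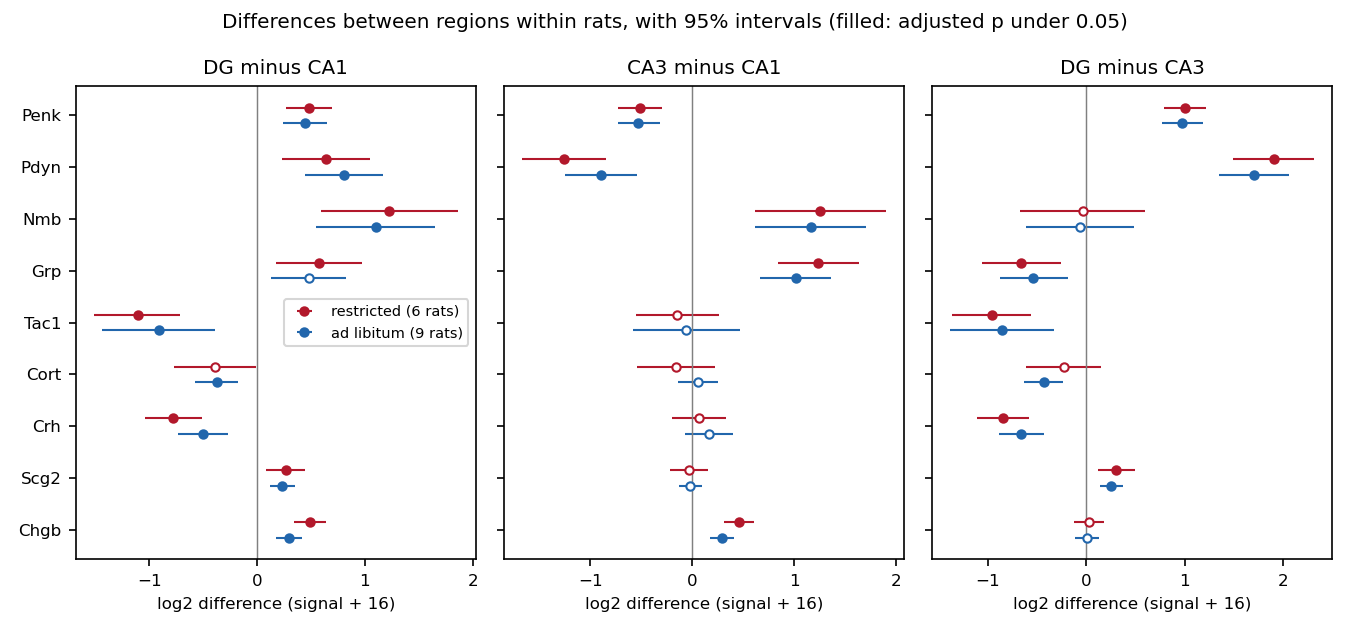
Log2 differences of dChip signal between regions within rats for 9 neuropeptide genes, in 6 restricted rats and 9 ad libitum rats. Horizontal bars are 95% intervals and filled points have an adjusted p under 0.05. Penk and Pdyn lie to the right of 0 for DG minus CA3, Nmb and Grp to the right of 0 for CA3 minus CA1, and Crh to the left of 0 for DG minus CA1. The Tac1 points rest on signals near the detection limit.

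Promoters were examined because peptide genes with cyclic AMP response elements are classic targets of activity-driven transcription through CREB. RefSeq promoter sequence of build GRCr8 (250 bases before to 50 after the start site) was on hand for 8 of the 10 genes, all but Penk and Crh. The palindromic element TGACGTCA, searched on both strands, lay in 1 of the 8, Scg2, with its first base at position -123, and in 1.83% of 33469 rat promoters of that length. The related element TGCGTCA, known from the enkephalin gene enhancer, lay in 2 of the 8, Tac1 at position -208 and Cort at position -107, and in 1.9% of all promoters. The shorter core TGACG lay in 4 of the 8 and in 21.2% of all promoters. It lies inside TGACGTCA and, on the opposite strand, inside TGCGTCA, so only its match in Grp, at position -86 on the opposite strand, adds a site. A match describes these letters alone. The promoters of the bombesin-like pair Nmb and Grp, of Tac1 and Cort, which share TGCGTCA, and of Scg2 are printed 5′ to 3′ along the gene's strand, with the matched letters in capitals. None of the searched motifs lay in the Nmb window.
Nmb (chr1:144281373-144281672, minus strand): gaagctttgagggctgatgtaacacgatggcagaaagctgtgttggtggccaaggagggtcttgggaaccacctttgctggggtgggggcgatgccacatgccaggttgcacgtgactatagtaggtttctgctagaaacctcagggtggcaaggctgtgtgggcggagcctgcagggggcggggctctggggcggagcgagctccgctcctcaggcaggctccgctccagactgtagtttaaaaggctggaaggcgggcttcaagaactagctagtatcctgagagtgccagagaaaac
Grp (chr18:61658405-61658704, plus strand): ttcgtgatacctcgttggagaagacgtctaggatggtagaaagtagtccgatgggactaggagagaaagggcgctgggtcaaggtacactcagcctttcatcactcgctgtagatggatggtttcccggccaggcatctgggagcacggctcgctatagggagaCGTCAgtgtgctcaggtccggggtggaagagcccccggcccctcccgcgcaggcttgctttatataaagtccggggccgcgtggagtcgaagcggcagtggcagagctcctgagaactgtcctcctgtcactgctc
Tac1 (chr4:36645333-36645632, plus strand): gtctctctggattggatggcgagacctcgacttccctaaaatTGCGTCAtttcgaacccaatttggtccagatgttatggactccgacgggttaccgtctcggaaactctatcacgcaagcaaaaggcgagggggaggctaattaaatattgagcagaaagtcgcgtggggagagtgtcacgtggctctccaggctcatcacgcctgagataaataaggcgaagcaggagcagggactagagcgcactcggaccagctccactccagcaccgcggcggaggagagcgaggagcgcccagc
Cort (chr5:164845075-164845374, minus strand): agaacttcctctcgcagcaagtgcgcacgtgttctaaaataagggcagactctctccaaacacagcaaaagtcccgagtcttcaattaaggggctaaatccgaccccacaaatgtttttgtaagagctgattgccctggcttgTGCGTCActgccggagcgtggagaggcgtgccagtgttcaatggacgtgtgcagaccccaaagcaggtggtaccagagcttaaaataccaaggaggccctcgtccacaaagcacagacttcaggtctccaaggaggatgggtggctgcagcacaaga
Scg2 (chr9:88256817-88257116, minus strand): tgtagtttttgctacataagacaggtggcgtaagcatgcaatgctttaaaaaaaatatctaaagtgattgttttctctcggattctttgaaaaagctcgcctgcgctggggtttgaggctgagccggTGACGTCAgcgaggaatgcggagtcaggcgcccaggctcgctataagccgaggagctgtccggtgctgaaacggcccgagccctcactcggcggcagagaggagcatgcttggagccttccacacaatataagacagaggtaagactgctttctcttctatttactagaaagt

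Age gave 1 called member. The comparison set 6 old rats fed ad libitum against 3 middle-aged rats in each region, and asks which genes move between 18 and 28 months. None of the 10 probe sets passed in CA1 or in DG, where 27.8% and 10.3% of all tested probe sets did, and 1 of 10 passed in CA3, where 20% did. The median difference of the 10 was 0.06 in CA1, -0.02 in CA3 and 0.23 in DG, beside 0.0654, 0.0473 and 0.0403 over all tested probe sets. In the value table the medians of the 8 member probe sets tested there were -0.29, -0.21 and -0.03, beside -0.00359, 0.019 and 0.0261. These 8 leave out Tac1 and the dim Pdyn probe set, so their medians and those of the 10 cover unlike sets. The CA3 gene was Tac1. Its signal was 129, 135, 124, 149, 143 and 160.3 in old rats, against 195, 199 and 194 in middle-aged rats, so the groups did not overlap, as for 24.7% of all tested probe sets (limma adjusted p = 0.00382). Tac1 was called present on none of the 6 old arrays and on 1 of the 3 middle-aged arrays, so the old signal is only an upper bound and no difference of this fit is given. The authors' deposited table of age changes in CA3 lists Tac1 with a fold of -1.41 and a p of 0.0005571 among 1482 probe sets, and no other member stands in any of their lists.

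Chgb, Grp and Cort passed for age in a region under some settings only. Chgb in CA1 was 7723, 7092, 8033, 6614, 6998 and 6822 in old rats, against 7804, 9116 and 8346 in middle-aged rats (log2 difference -0.22, adjusted p = 0.0596). In the value table the difference was -0.40 with an adjusted p of 0.0269 (background 18.1%). It also passed without ALMA replicate 1 (-0.28, adjusted p = 0.0429) and without ALO_GP replicate 3 (-0.26, adjusted p = 0.0365). Grp in CA3 ran from 509 to 1141 in old rats, against 1114 to 1169 in middle-aged rats (log2 difference -0.43, adjusted p = 0.184). In the value table it fell by 0.69 on the log2 scale with an adjusted p of 0.0263, where 14.9% of all were called. Its arms did not overlap there, and 3 member probe sets in all parted. The share of all probe sets that parted was computed only by dChip (24.7%). Cort passed in CA1 without ALMA replicate 1 (0.50, adjusted p = 0.0442) and not with it (0.33, adjusted p = 0.152; value table -0.20, adjusted p = 0.409). In CA3 it passed in neither table and had opposite signs, 0.25 by dChip (adjusted p = 0.149) and -0.29 in the value table (adjusted p = 0.0694). The opioid precursors gave differences near 0 in DG, -0.03 for Penk (95% interval -0.32 to 0.26) and -0.01 for the bright Pdyn probe set (95% interval -0.28 to 0.25).

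Genes that process and store peptides were set beside the precursors in the age comparison, where all tested probe sets gave 3827 higher and 1342 lower in CA1 (27.8% in both directions), 2829 and 905 in CA3 (20%), and 1528 and 391 in DG (10.3%). Of 13 processing enzymes tested, 4 rose in CA1, 4 rose and 1 fell in CA3, and 1 rose in DG. Thop1, an oligopeptidase that degrades peptides, rose by 0.91 in CA1 (adjusted p = 4.88e-05), 0.87 in CA3 (adjusted p = 0.000129) and 0.72 in DG (adjusted p = 0.00278). Of 10 granins and vesicle proteins, 3 rose in each region and none fell. They include Pcsk1n, which encodes the prohormone convertase inhibitor proSAAS, at 1.12 in CA1, 1.11 in CA3 and 1.14 in DG, and Ptprn, a dense core vesicle protein, at 0.52, 0.45 and 0.50. Among 15 precursors outside the list, 2 rose in CA1 (Sst by 0.64 and Tac3 by 0.52) and 3 in CA3 (Tac3 by 0.91, Cck by 0.27 and Pnoc by 0.41), and none passed in DG. Receptors passed in 3 of 15 in CA1, 2 in CA3 and 2 in DG, all of them higher, with Ntsr2 at 0.49, 0.42 and 0.40. Of 15 activity-induced genes, 6 rose in CA1, 3 in CA3 and 2 in DG, led by Junb and Arc. The DapX sets part old from middle-aged arrays in the same way, as stated above.

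Restriction gave 1 called member. The comparison set 6 restricted old rats against 6 old rats fed ad libitum. None of 10 probe sets passed in CA1 (background 0.0215%) or in CA3 (background 8.38%), and 1 of 10 passed in DG (background 31.7%). The median difference of the 10 was -0.01, -0.08 and 0.04 in CA1, CA3 and DG, beside -0.0282, -0.0518 and -0.046 over all tested probe sets. The 8 tested in the value table, without Tac1 and the dim Pdyn probe set, had medians of 0.11, 0.02 and 0.10, which cover another set than the 10. The DG gene was Crh. Its signal was 107, 112, 98.3, 89.5, 90.4 and 86.1 in restricted rats, against 105, 141, 170.0, 116, 133 and 158 in ad libitum rats, overlapping at 1 ad libitum array (log2 difference -0.43, SE 0.104, adjusted p = 0.0101). In the value table the same comparison gave a log2 difference of 0.04 with an adjusted p of 0.85, where 20.6% of probe sets passed, so the direction for Crh was not the same under both processings. Restricted and ad libitum DG arrays lie in different DapX sets.

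Chgb in DG was the 1 member whose arms parted. Its signal was 10124, 9969, 9890.0, 10074, 9906 and 9865 in restricted rats, against 7953, 9585, 9329.8, 8501, 9799.9 and 9579.9 in ad libitum rats, a difference of 0.13 that did not pass the threshold (adjusted p = 0.0824). Of all tested probe sets, 14.9% parted in that comparison. In the authors' dChip table of DG arrays alone the Chgb difference was 0.18 with an adjusted p of 0.0415. Penk, Pdyn and Nmb passed in no region and their arms overlapped in each, with 95% intervals for Penk of -0.30 to 0.29 in CA1, -0.25 to 0.25 in CA3 and -0.09 to 0.20 in DG. In CA1, where the 3 CRO_GP arrays share a DapX set with the 6 ad libitum arrays, a fit within that set called none of the 10. Its restricted arm holds good performers only, against good and poor performers fed ad libitum, and there the Nmb difference was 0.75 (adjusted p = 0.41), against 0.14 with all 12 rats (adjusted p = 0.855). No member passed for age by region (0.0215% of all called) or diet by region (0.0268%).

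Of the other lists, restriction called no gene of any of the 5 in CA1, where 0.0215% of all tested probe sets were called. In CA3, where 547 probe sets were higher and 1014 lower (8.38%), 2 of 14 other precursors fell (Tac3 by -0.80 and Vip by -0.58) and none rose. In DG 2302 of all tested probe sets were higher and 3605 lower (31.7%). There, 4 of 10 granins and vesicle proteins rose and 2 fell, with Ptprn at 0.36 and Chga at -0.30, and 4 of 15 receptors rose and 2 fell. Oprd1, the delta opioid receptor on which enkephalins act, differed by 1.88 (adjusted p = 0.00692), Tacr1, the substance P receptor, by 0.74 (adjusted p = 0.00621), and Crhr1, the corticotropin-releasing hormone receptor, by -0.50 (adjusted p = 0.0339). All of these DG values separate the DapX sets as well as the diets, and the CA3 values do so for all but 1 restricted array.

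**Figure D3:**
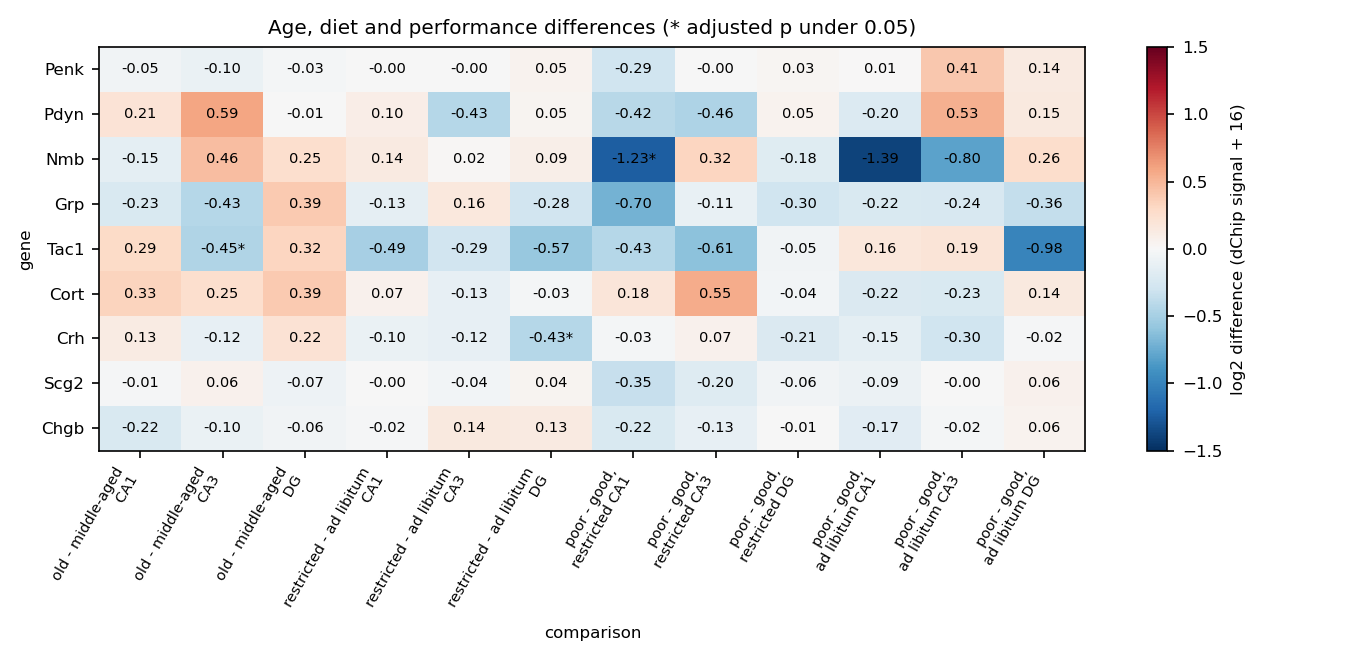
Log2 differences of dChip signal for age (old minus middle-aged), diet (restricted minus ad libitum) and performance (poor minus good) in restricted and in ad libitum rats, by region and gene, with the bright probe set for Pdyn. Marked cells have an adjusted p under 0.05. Tac1, near the detection limit, for age in CA3, Crh for diet in DG and Nmb for performance of restricted rats in CA1 are marked among the members.

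In CA1, Nmb separated poor from good performers. Poor performers had 223, 188 and 146 on the CRO_PP arrays and 124, 201 and 150.1 on the ALO_PP arrays, against 382, 356 and 677 on the CRO_GP arrays and 617, 267 and 491 on the ALO_GP arrays. All 6 poor performers thus lay below all 6 good performers, under both diets. Of all 18625 tested probe sets, 0.714% parted poor from good performers in CA1, in either direction. The log2 difference was -1.31 over both diets (95% interval -1.79 to -0.83), -1.23 in restricted rats (-1.94 to -0.52) and -1.39 in ad libitum rats (-2.10 to -0.68). The middle-aged rats, which have no performance label, had 128, 402 and 377 in the table of ad libitum rats.

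Tests across the whole table gave less. No probe set passed for performance over both diets in CA1 (0.0% called, with 3032 at an unadjusted p under 0.05 and in the value table also 0.0%, with 1668), and Nmb had an adjusted p of 0.256. For ad libitum rats 0.0% were called in CA1, with 311 at an unadjusted p under 0.05, and Nmb had an adjusted p of 1.0. In restricted rats 13.4% were called, and Nmb was the 1 member among them (SE 0.321, adjusted p = 0.0315). That call was lost in the value table (log2 difference -0.68, adjusted p = 0.157, background 2.37%) and without any of CRO_GP replicates 1, 2 and 3 or CRO_PP replicates 2 and 3, where the difference ran from -0.95 to -1.40 and the adjusted p from 0.0551 to 0.111. In restricted CA1 the good performers' arrays lie in the middle DapX set and the poor performers' in the low one, so performance and control set cannot be told apart there. All 6 ad libitum arrays of CA1 lie in the same set. The diet by performance term for Nmb was 0.15 (95% interval -0.85 to 1.16, adjusted p = 0.9, background 0.95%).

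The value table gave the same separation for Nmb and for another member probe set, 2 in all. The share of all probe sets that part in that table was not computed. CRO_PP arrays had 44.1, 41.2 and 43.5 and ALO_PP arrays 30.8, 36.7 and 34.8, against 70.1, 54.3 and 122 on CRO_GP arrays and 116, 48.8 and 83.4 on ALO_GP arrays. The log2 difference was -0.80 over both diets (adjusted p = 0.535). ALMA arrays had 18.2, 98.6 and 89.6.

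**Figure D4:**
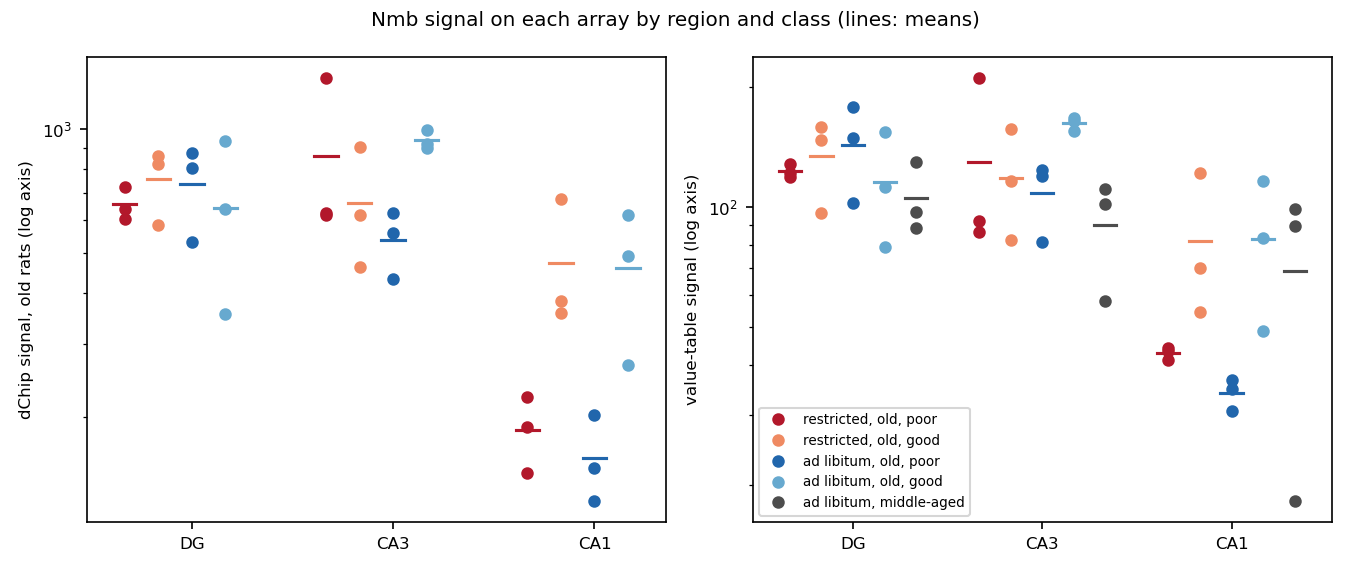
Nmb signal on each array by region (DG, CA3, CA1) and class, from the dChip table of old rats on the left and from the value table of all rats on the right, on logarithmic axes. Lines are class means. In CA1 the 6 poor performers (124 to 223 by dChip) lie below the 6 good performers (267 to 677), and in DG the classes overlap.

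In CA3 the Nmb separation was seen in ad libitum rats and not in restricted rats. ALO_PP arrays had 624, 432 and 558 against 991, 919.6 and 901 on ALO_GP arrays (log2 difference -0.80, adjusted p = 0.673), without overlap, as for 19.2% of all probe sets. CRO_PP arrays had 625, 619 and 1329, against 904, 462 and 619 on CRO_GP arrays (log2 difference 0.32, adjusted p = 0.609). The difference between these differences was 1.12 (95% interval 0.18 to 2.06) and did not pass the threshold (adjusted p = 0.287, background 0.333%). In DG the performance difference of Nmb was 0.04 over both diets (95% interval -0.44 to 0.52). A test of performance by region over both diets, added after the data were seen, gave terms of 1.35 for DG and 1.07 for CA3 relative to CA1 and an adjusted p of 0.665 (0.0% called, 1029 at an unadjusted p under 0.05).

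Marker genes of other cells were set beside the Nmb result in CA1. Dentate granule markers summed to 8124 to 11999 in poor performers (median 10702) and to 9884 to 14076 in good performers (median 11398). CA3 pyramidal markers summed to 20151 to 21969 in poor performers and to 21316 to 23879 in good performers. Interneuron markers summed to 23893 to 26065 on CRO_PP arrays against 26842 to 28225 on CRO_GP arrays, and to 25337 to 30149 on ALO_PP arrays against 24984 to 27070 on ALO_GP arrays. The part of tissue from neighbouring regions in the Nmb difference was not tested.

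Other member probe sets counted here parted poor from good performers within a diet without passing the test. In CA1 of restricted rats Grp was 337, 375 and 283 in poor performers against 517, 461 and 685 in good performers (log2 difference -0.70, adjusted p = 0.0734). Scg2 was 6281, 5919.7 and 4153 against 6563, 6562 and 7401 (log2 difference -0.35, adjusted p = 0.118). Tac1 also parted, on 6 arrays where it was not called present. With these and Nmb, 4 of 10 members parted there, as did 38% of all tested probe sets. The median difference of the 10 was -0.38, beside -0.0733 over all tested probe sets. The dimmer Adcyap1 probe set, outside these counts, was 66.3, 113 and 49.2 in poor performers against 260.4, 119 and 208 in good performers (log2 difference -1.20, adjusted p = 0.0313), and the brighter one differed by -0.68 (adjusted p = 0.0895). In CA1 of ad libitum rats Chgb parted besides Nmb, with 6492, 7051 and 6895 in poor performers against 7669, 7333 and 7946 in good performers (log2 difference -0.17, adjusted p = 1.0, 7.22% of all probe sets parting). In CA3, 3 members parted in ad libitum rats (Nmb, Tac1 and Crh, where 19.2% of all did) and 2 in restricted rats (Cort and the dim Pdyn probe set, where 19.4% did), and in DG 1 parted in restricted rats (Crh, where 13.2% did). Tac1 was called present on none of those CA3 arrays and the dim Pdyn probe set on only some, so these signals are in part only upper bounds. No member passed for performance in CA3 or DG under either diet, where the background was 0.0% in ad libitum rats (1226 in CA3 and 1591 in DG at an unadjusted p under 0.05) and 0.00537% and 0.102% in CA3 and DG of restricted rats.

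Among the other lists in restricted CA1, where 1160 of all tested probe sets were higher and 1342 lower in poor performers (13.4%), 2 of 14 precursors were higher in poor performers (Hcrt by 0.65 and Npff by 0.80) and 2 lower (Nppc, -0.75, and Sst, -0.36). Oprd1 was higher by 1.80 (adjusted p = 0.00319) and Tacr1 by 0.88 (adjusted p = 0.00808), the same receptors that were higher in restricted DG, and both contrasts set arrays of the low DapX set against arrays of the middle one. In ad libitum rats no gene of the 5 lists passed for performance in any region.

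The other peptide genes were counted by region in the same way. Of 14 precursors outside the list tested in restricted rats, 1 was higher and 5 were lower in DG than in CA1 (background 12.2% and 15.6%), and of 15 tested in ad libitum rats 1 was higher and 9 lower (8.13% and 8.4%). Vip, a peptide of interneurons, differed by -1.22 and -1.05, Sst by -0.59 and -0.47, and Cck by -0.54 and -0.72. Between DG and CA3 the counts were 1 higher and 5 lower in restricted rats (background 10.3% and 6.63%) and 1 higher and 12 lower in ad libitum rats (20% and 16%). Among receptors, Sstr4, a somatostatin receptor, was lower in DG than in CA1 by log2 differences of -1.08 and -1.04. Vipr1, a receptor for VIP that also binds PACAP, was higher in DG than in CA3 by 1.01 and 0.85.

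Over the 45 arrays of the value table, the genes whose signal followed each member most closely were found by Pearson correlation of log2 values, as a description over arrays that share regions, animals and DapX sets. Pdyn was followed by Tiam1 (r = 0.969), Cxcl12 (0.966) and Dsp (0.96), and Penk by Ephx4 (0.888), Ctps2 (0.884) and Kitlg (0.883). Nmb was followed by Cst6 (0.857), Frem3 (0.823) and Cpne4 (0.806), Grp by Camk1g (0.798), Pls3 (0.782) and Oprl1 (0.781), and Crh by Nxph1 (0.803), Zfp462 (0.768) and Thsd7b (0.749). Scg2 was followed by Pkia (0.903), Epha7 (0.884) and Arg1 (0.852), and Chgb by Il16 (0.918), Enox2 (0.909) and Cpne4 (0.898). The values for Cort were lower, led by Dctpp1 (0.639). Among the members themselves Penk and Pdyn correlated at 0.864, Nmb and Chgb at 0.724, Grp and Chgb at 0.715, and Pdyn and Crh at -0.748.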

How the data were processed

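RNA of dissected CA1, CA3 and DG from 15 rats was hybridised to Affymetrix RAE 230 2.0 arrays, per the labels' protocols. The deposited tables hold signal values with present calls from dChip, per the file headers, in a table of ad libitum arrays, a table of old arrays and regional tables. The series value table holds a deposited signal of unstated processing for all 45 arrays. No source used here gives its normalization or model settings. The genes and lists were chosen with earlier results of these data known. Probe sets whose table mean lay above the 40th percentile were kept (18625 of 31042), which kept all 10 member probe sets by dChip and 8 in the value table (not Tac1 or the dim Pdyn). Values were tested as log2(signal + 16) with limma 3.58.1 in R 4.3.3, with Benjamini-Hochberg adjustment over the table and a threshold of 0.05. Age, diet and performance were fitted per region. Region contrasts had the animal as a block, and terms with region had it as a random block. Named outside genes are the up to 4 of each list with the smallest p past the threshold, and the 3 most alike genes by correlation. The fits were tested on simulated data. The number of arrays limits the precision. No pair of arrays held identical values. Title numbers did not pair animals across classes: 67 same-number pairs of arrays had a mean correlation of deviations of -0.016, against 0.01 in 149 other pairs.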

Additional observations from a re-analysis of the deposited data

Results flagged for a closer look

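Of 60 groups of 6 arrays examined, 5 held an array far from the others by Dixon's ratio, and chance flags about 1 in 20 groups. In CA1 of restricted rats 3 of them concern CRO_PP replicate 3, an array that the authors marked as an outlier. Its Chgb signal was 5366, against 7042 to 8080.1 on the other 5 arrays, its Penk signal was 1708, against 2471 to 3036, and its dim Pdyn signal was 24.2, against 91.9 to 133. In DG of old ad libitum rats the remaining 2 concern ALO_GP replicate 1, the array with the high meningeal marker sum. Its bright Pdyn signal was 4623, against 5954 to 6742 on the other 5 arrays, and its Scg2 signal was 5909.8, against 7175 to 7669.8.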

How the results depend on the processing

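Of 4452 results for single genes under the alternatives, 4387 stayed on their side of the threshold with no called value changing sign, 50 lost the call, 14 gained it and 1 called value reversed (Crh for diet in DG, 0.04 with an adjusted p of 0.85 in the value table). Among the 4387, 198 differences below the threshold changed sign, such as Nmb for diet in CA1 and Cort for age in CA1 and CA3. In the value table the number of members called became 1 of 8 for age in CA1 (Chgb), 0 for diet in DG, 0 for performance of restricted rats in CA1 and 3 of 8 for DG minus CA3 in restricted rats. Requiring present calls on at least 3 arrays left 8 members and 0 calls for age in CA3, since Tac1 no longer entered. The regional dChip table gave 2 of 9 for diet in DG (Crh and Chgb). With the replicate number as a block, which the labels do not support as a pairing, age in DG gave 1 call (Cort, 0.39, adjusted p = 0.0428) and performance of restricted rats in CA1 gave 0 (Nmb, -1.23, adjusted p = 0.0544). Leaving out 1 replicate at a time, the count ran from 0 to 2 for age in CA1 (Chgb and Cort without ALMA replicate 1, Chgb without ALO_GP replicate 3, and the dim Pdyn probe set without ALO_PP replicate 1) and from 0 to 2 for performance of restricted rats in CA1 (0 without CRO_GP replicate 1, 2 or 3 or CRO_PP replicate 3, and 2 without ALO_GP replicate 2, where Grp joined Nmb at -0.70 with an adjusted p of 0.0326; without CRO_PP replicate 2 the 1 call was Tac1, adjusted p of 0.0349, not called present on any restricted CA1 array). For the region contrasts it ran from 6 to 9 for DG minus CA1 in restricted rats, 8 to 10 in ad libitum rats, 5 to 6 for CA3 minus CA1 in restricted rats, 5 to 8 for DG minus CA3 in restricted rats and 7 to 8 in ad libitum rats. The causes of these changes were not tested. Pseudocounts of 1 and 64 changed no call. Precision is limited by 3 animals per class and, for Tac1 and the dim Pdyn probe set, by signals near the detection limit.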
